A study of Mus musculus with 12 samples.

Results

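Lung gene expression of mice that received both ovalbumin and ambient particulate matter (OVA/PM) was compared with that of mice given only vehicle (PBS/PBS). The arrays were chosen by their labels, which gave 6 of the 12 arrays of the series, 3 from each group. All animals were A/J mice 8 to 10 weeks of age, and each array held whole-lung RNA taken 4 days after the last instillation. OVA/PM mice were sensitized with ovalbumin (0.4 mg/kg, intraperitoneally) on day 0 and challenged with it intratracheally (30 mg/kg) on day 14. They then received 50 μL of a suspension of urban Baltimore particles at 10 mg/mL into the airway. PBS/PBS mice received phosphate-buffered saline in place of every ovalbumin and particle dose. The other arrays came from mice given ovalbumin with saline (OVA/PBS) or saline with particles (PBS/PM). Whole lung mixes all of its cell types, and the values were normalized to a common distribution. A lower or higher value could mean a change in the number of cells of a type or in RNA per cell. It could also mean a change in the share taken by RNA of other cells. These cannot be told apart.

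Sensitization with ovalbumin followed by airway challenge is a standard model of allergic asthma. T helper type 2 cytokines recruit eosinophils, turn airway secretory cells into mucus-filled goblet cells and drive macrophages into an alternatively activated state. Inhaled particles are taken up by macrophages and airway epithelium, and they can provoke neutrophilic inflammation, complement activation and oxidative stress. A combined exposure therefore bears on epithelium, resident and recruited leukocytes, and the vessels and alveoli around them.

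Values are log2 GCRMA levels, and differences are OVA/PM minus PBS/PBS. Where values of the 3 arrays of each group are joined by "against", those of PBS/PBS come first. Several arrays carried transcripts of other tissues. PBS/PBS replicate 1 held liver transcripts: the 14 liver genes of the list averaged 8.65 there and 2.25 to 2.41 in the other 11 arrays, and Alb, which encodes albumin, was at 13.38 against 2.63 to 3.39. No liver gene of that list entered a test, because no group reached the level for testing in all 3 arrays. PBS/PBS replicate 3 held neutrophil granule transcripts (Camp 8.61, with 2.56 and 2.37 in the other PBS/PBS arrays). Members of a muscle list averaged 10.08, 8.89 and 9.34 in the PBS/PBS arrays and 6.87, 8.27 and 7.82 in the OVA/PM arrays. Genes of stratified epithelium, such as Krt4 and Krt13, averaged 8.14, 7.11 and 4.05 in PBS/PBS and 3.87, 6.38 and 5.76 in OVA/PM. The 3′ minus 5′ difference of the Actb control probe sets, a sign of RNA quality, was 0.41, 0.43 and 0.50 in PBS/PBS and 0.81, 0.61 and 0.71 in OVA/PM. The part of these differences in the results was not tested. Lung markers were high in all 6 arrays, as Sftpc, the surfactant protein of alveolar type 2 cells, lay at 15.40 to 15.69.

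Of 45101 probe sets, 22538 were tested. These reached 4.93, the overall median of the 12 arrays, in every array of OVA/PM, of PBS/PBS or of both. At an adjusted p of 0.05 (limma), 2449 probe sets were higher in OVA/PM and 2450 were lower, 10.9% in each direction. Counted as genes with 1 probe set each, 1574 were higher (8.65% of the 18193 genes on the array, 13.9% of the 11334 tested) and 1109 lower (6.10% and 9.78%). The rises were the larger changes: 280 genes rose and 20 fell by at least 4-fold, and 59 rose and 3 fell by at least 16-fold on the fitted scale. Those 3 were Tnnt3, Myot and Atp2a1, genes of muscle. Their calls were lost in 4, 2 and 4 of the 6 fits that left out 1 array. At a stricter adjusted p of 0.003 and over 3-fold, with the probe set of lowest p for each gene, 253 genes were higher (2.23%) and 23 lower (0.203%). The median difference over all genes on the array was 0.04. Counts for gene lists below are out of members on the array, to be set against 8.65% higher and 6.10% lower. Leaving out 1 array at a time gave 2188 to 4491 probe sets in place of 4899, with 2188 without PBS/PBS replicate 2, 2870 without PBS/PBS replicate 1 and 2869 without OVA/PM replicate 1. In all 6 of these fits 776 of the higher and 326 of the lower genes kept their call.

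**Figure D1:**
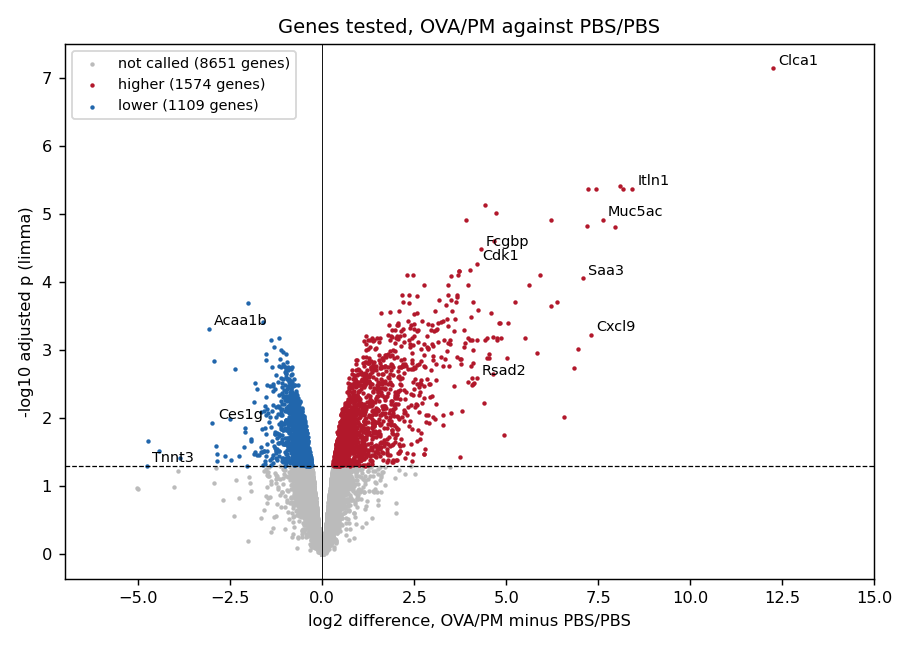
Log2 difference of OVA/PM minus PBS/PBS (x axis) against −log10 of the limma adjusted p (y axis), 1 point per gene tested. Red points are the 1574 genes called higher, blue points the 1109 called lower, the dashed line is an adjusted p of 0.05, and the rises reach further from 0 than the falls.

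The secreted products of goblet cells had the largest median difference of the gene lists examined. Members and lists were chosen with earlier results of these data known, so this rank describes the lists as drawn. Of 13 genes of that list on the array, 12 rose and none fell, with a median difference of 5.01 against 0.04 over all genes. The 12 were all the members tested, and 12 rose with any 1 array left out or with no filter on low values. Clca1, a secreted regulator of mucus and chloride channels, had levels of 2.39, 2.40 and 2.38 in PBS/PBS and 14.68, 14.49 and 14.71 in OVA/PM. The difference was 12.24 ± 0.09 (SE, n = 3 per group, adjusted p = 7.1e-08, limma), at least 830-fold since every PBS/PBS array lay under 4.93. Muc5ac, the gel-forming mucin of airway goblet cells, rose from 1.70, 2.34 and 2.12 to 9.45, 9.75 and 9.82, at least 26.8-fold. Both genes lay under 4.93 in the 3 vehicle lungs and over it in the 3 exposed lungs.

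Tff2, a trefoil peptide that stabilizes mucus, lay at 5.86, 5.65 and 5.07 in PBS/PBS and 11.41, 11.68 and 11.26 in OVA/PM, a 60.7-fold rise (adjusted p = 7.9e-05). For Agr2, a disulfide isomerase needed to fold mucins, the values were 5.49, 5.87 and 4.82 against 10.63, 10.62 and 10.62, 37.7-fold higher. Muc5b, the other major airway mucin, was already expressed at 9.31, 9.40 and 9.14 and rose to 11.64, 11.75 and 11.58, 5.17-fold. In none of these genes did the groups overlap. Fcgbp, a mucus-binding protein, rose by 4.30 ± 0.13, the pancreatic-type glycoprotein Gp2 by 6.37 ± 0.31, the lectin Itln1 by 8.42 ± 0.15 and the anion exchanger Slc26a4 by 5.01 ± 0.43.

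Regulators of goblet cell identity changed in part. Spdef, the transcription factor that drives goblet cell differentiation, was at 2.42, 2.35 and 2.41 in PBS/PBS and 5.28, 6.32 and 5.96 in OVA/PM (adjusted p = 0.00071). Of 13 such factors 5 rose, among them Creb3l1 by 2.43 and Elf3 by 1.19, and Nkx2-1, the lung lineage factor, fell by 0.62. Without PBS/PBS replicate 2, 3 of the factors rose. Foxa3 lay under 4.93 in all 6 arrays and was not tested. Enzymes that fold and glycosylate mucins gave 11 rises in 26 genes, led by the transferases Galnt6 (2.63), St8sia6 (2.04) and Galnt12 (1.58).

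Other airway epithelial genes moved less. The antimicrobial lectin Reg3g (2.87) and Scgb3a1 (1.26) rose among 15 club cell and secretory genes, of which 4 rose and 2 fell. The 2 falls became 4 without PBS/PBS replicate 3 and 1 without any other array. Scgb1a1, the defining club cell secretoglobin, was at 16.05, 16.07 and 16.02 against 15.85, 15.95 and 16.03, with no difference passing the test (adjusted p = 0.44). Of 25 multiciliated cell genes 7 rose and 1 fell (28% and 4%, against 8.65% and 6.10% of all genes). The 7 became 2 without OVA/PM replicate 1 and 4 without OVA/PM replicate 3 or PBS/PBS replicate 2. Foxj1, the master factor of ciliogenesis, rose by 0.84 ± 0.19, a call lost in 4 of the 6 fits that left out 1 array. Ion transport genes split: beside Slc26a4, the glucose cotransporter Slc5a1 (2.57) and the water channel Aqp4 (1.52) rose, and the sodium channel subunit Scnn1b fell by 0.85.

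The type 2 cytokines themselves were too low to test, while a few genes of their pathways rose. Il4, Il5 and Il13 stayed between 1.95 and 2.98 in the 6 arrays, under the level for testing. Il33, an epithelial alarmin that acts on type 2 lymphocytes, rose from 10.86, 10.89 and 10.49 to 12.31, 12.62 and 12.53, 3.33-fold (adjusted p = 0.0012). It was joined by Crlf2 (0.68), the receptor for thymic stromal lymphopoietin, and Il13ra1 (0.64), whose call was lost in 5 of 6 fits with 1 array left out. In all, 3 of 18 genes of this list rose (16.7%, against 8.65% of all genes on the array).

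Alternatively activated macrophage genes gave 10 rises in 18, with a median of 1.63. Retnla, a resistin-like protein induced by interleukin-4, was at 10.22, 10.44 and 10.26 in PBS/PBS and 14.69, 14.70 and 14.75 in OVA/PM, 21.3-fold higher. The chitinase-like proteins Chil3 and Chil4 rose by 2.34 ± 0.14 and 8.09 ± 0.13, and Chia1, an active chitinase, by 1.51 ± 0.22. Arg1 was at 4.56, 1.99 and 2.03 against 5.09, 5.60 and 5.14 and missed the threshold (adjusted p = 0.051), with PBS/PBS replicate 1, the array with liver transcripts, above the other vehicle arrays. Eosinophil genes were mostly under the level: Epx, Prg3 and Ccr3 did not exceed 2.17 in any of the 6 arrays. Rnase2a, an eosinophil-associated ribonuclease of a family of near-identical copies, was the 1 of 9 that rose (2.78, 2.73 and 2.77 against 9.77, 9.89 and 10.25), and its probe set may not separate the copies. That share of the list, 11.1%, was near the 8.65% of all genes.

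Chemokines for several leukocyte classes rose together. Of 12 chemokines for monocytes and eosinophils, 8 rose and 1 fell. Ccl8 was at 6.00, 6.49 and 6.38 in PBS/PBS and 12.36, 12.62 and 12.53 in OVA/PM, 74.2-fold higher (adjusted p = 1.2e-05). Ccl3, Ccl4 and Ccl12 rose by 5.85, 5.05 and 4.58, and the eotaxin Ccl11, which draws eosinophils, by 2.48 ± 0.31. Among 8 neutrophil-attracting chemokines 5 rose, led by Cxcl3, Cxcl5 and Cxcl2. Cxcl5 was less even than the others, at 8.97, 11.21 and 10.79 in OVA/PM and 3.38, 3.23 and 3.49 in PBS/PBS. Cxcl10, which draws activated T cells, lay at 3.92, 4.79 and 4.53 against 10.13, 11.14 and 10.60, at least 51.8-fold higher. Cxcl9 rose by 7.29 ± 0.49, at least 40.7-fold.

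Cytokines of the acute inflammatory response rose in part. Of 15 genes of the interleukin-6 family and its inhibitors 4 rose and 1 fell. Il6 was at 3.92, 5.80 and 4.21 in PBS/PBS and 8.87, 8.76 and 8.69 in OVA/PM (adjusted p = 0.003), with its vehicle replicate 2 above the others. Osm and its feedback inhibitor Socs3 rose by 2.21 and 1.29. Of 19 genes of the interleukin-1 family and inflammasome 9 rose, the receptor antagonist Il1rn by 4.75 ± 0.34. Il1b was at 8.04, 9.46 and 10.74 against 10.26, 11.49 and 11.07, with overlapping arrays and no call. Tnf lay at 4.78, 6.51 and 6.24 in OVA/PM and at 2.25, 2.20 and 2.23 in PBS/PBS, and was not tested because 1 OVA/PM array was under 4.93. Ifng did not exceed 2.59.

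Of 24 acute phase and antimicrobial proteins 9 rose. The local serum amyloid Saa3 lay at 6.53, 7.01 and 7.35 in PBS/PBS and 13.69, 14.49 and 13.96 in OVA/PM, and Lcn2, which binds bacterial siderophores, at 11.52, 11.75 and 11.93 against 14.26, 15.08 and 14.80. Lactotransferrin (Ltf) rose by 2.82 ± 0.45. These genes are shared with neutrophils, of whose 16 list genes 3 rose. The granule transcripts Camp and Ngp were highest in PBS/PBS replicate 3 among the vehicle arrays, and S100a8, at 11.69, 13.57 and 14.35 against 11.44, 13.41 and 12.79, was not called.

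Most genes of monocytes and macrophages rose, while those of alveolar macrophages split. Of 25 genes of monocytes and macrophages, 17 rose and none fell, with a median of 1.83. With 1 array left out, between 14 and 20 rose. Of 13 alveolar macrophage genes 5 rose and 3 fell, with a median of 0.39. In those fits 5 rose and 1 to 3 fell. Ms4a7, a membrane protein of mature macrophages, was at 5.56, 6.36 and 5.83 in PBS/PBS and 9.42, 10.32 and 10.08 in OVA/PM. Trem2, a lipid-sensing receptor, rose from 3.33, 4.06 and 3.08 to 7.61, 8.39 and 8.40, at least 9.21-fold. Acod1, the enzyme that makes itaconate in activated macrophages, had levels of 2.37, 2.33 and 2.75 against 10.04, 10.72 and 10.59. For none of these genes did a vehicle array reach an exposed one.

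Receptors for microbes and antibodies followed. Of 15 C-type lectin receptors 10 rose and 1 fell. Clec4e, which recognizes mycobacterial glycolipid and dead cells, was at 2.36, 3.61 and 6.73 in PBS/PBS, a wide spread, and at 10.09, 11.28 and 11.02 in OVA/PM. Clec4d, Clec4n and Clec7a, a receptor for fungal glucans, rose by 3.78, 2.98 and 2.69. Fc receptors gave 7 rises in 11, among them Fcgr2b (3.39) and Fcgr1 (3.02), and the epithelial transporter of IgA, Pigr, rose by 2.75. Toll-like receptors and their partners gave 9 rises in 18, among them Tlr2 (1.75), Tlr7 (1.85) and Cd14 (2.06). Without OVA/PM replicate 2, OVA/PM replicate 3 or PBS/PBS replicate 2 the 9 became 5.

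Complement genes rose in part. Of 27 on the array, 10 rose and none fell. C3ar1, the receptor for the anaphylatoxin C3a, was at 3.73, 4.47 and 5.73 in PBS/PBS and 8.54, 8.69 and 8.93 in OVA/PM, and each of its probe sets was called higher. Cfb, the protease of the alternative pathway, lay at 8.45, 8.52 and 8.10 against 11.61, 12.73 and 12.32, 14.6-fold higher (adjusted p = 0.00077). The chains of C1q, which starts the classical pathway and comes largely from macrophages, rose by 1.57 ± 0.14 (C1qa), 1.87 ± 0.13 (C1qb) and 1.72 ± 0.16 (C1qc). Hc, which encodes C5 and carries a null allele in A/J mice, was at 10.40, 10.36 and 11.27 against 11.20, 10.98 and 11.33 with no call.

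Some proteases of macrophages and matrix rose. Of 19 matrix metalloproteinases and inhibitors 6 rose and 1 fell, with a median of 0.35. Mmp12, the macrophage elastase, had levels of 6.10, 5.98 and 6.46 in PBS/PBS and 13.63, 13.54 and 13.72 in OVA/PM. Its relative Mmp13, a collagenase, rose by 4.10, and Timp1, their inhibitor, by 4.80 ± 0.29, at least 18.4-fold. Of 18 cathepsins and cystatins 12 rose, with Ctsk, a collagen-degrading cathepsin, at 9.07, 9.49 and 9.27 against 12.67, 12.91 and 12.79. Lysosomal hydrolases and proton pump subunits gave 11 rises in 26, and 7 without PBS/PBS replicate 2. Among 33 collagen and matrix genes 9 rose and 1 fell, with Tnc, a matrix glycoprotein of injured tissue, up by 1.74 and Col1a1 and Col3a1 by 1.50 and 1.16.

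Lymphocyte genes rose in part. Of 19 T cell genes 10 rose, but with 1 array left out between 5 and 14 did, 5 without PBS/PBS replicate 2 and 6 without OVA/PM replicate 3. Icos, an inducible costimulator, was at 4.31, 4.37 and 5.37 in PBS/PBS and 7.72, 8.39 and 8.23 in OVA/PM, and the checkpoint receptor Ctla4 at 4.39, 5.01 and 5.54 against 7.94, 8.26 and 8.02. Cd3e, a defining T cell chain, lay at 5.91, 6.83 and 7.51 against 7.66, 8.12 and 7.53 and was not called (adjusted p = 0.12), and Foxp3 was under the level. Costimulatory and regulatory genes gave 13 rises in 27, including Tnfrsf9 (3.74) and Cd274 (2.63), and the granzyme Gzmb rose by 2.76 ± 0.36. Those 13 were all the costimulatory and regulatory members tested. The mean level of that list was 4.02 to 4.40 in PBS/PBS, under 4.93, so the filter favoured rises. With no filter 14 rose, and 3 did with the filter at the 75th percentile.

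B cell and antibody genes also rose in part. Of 18 B cell genes 8 rose, and 8 of 14 plasma cell and immunoglobulin genes did. The B cell count became 5 without OVA/PM replicate 1, OVA/PM replicate 3 or PBS/PBS replicate 2. Mzb1, which helps antibodies assemble, was at 6.50, 7.30 and 8.12 in PBS/PBS and 11.71, 10.00 and 10.74 in OVA/PM (adjusted p = 0.0083). Jchain, which joins IgA and IgM into polymers, lay at 11.18, 12.11 and 12.03 against 14.21, 13.68 and 13.75, and Igha, the IgA heavy chain, rose by 1.48. Probe sets of immunoglobulin segments can share sequence, so single segments are uncertain. Of 24 antigen presentation genes 16 rose, with the peptide transporter Tap1 up by 2.23 ± 0.35, but 5 did without PBS/PBS replicate 2, 7 without PBS/PBS replicate 1 and 8 or 9 without any 1 of the OVA/PM arrays.

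Interferon-induced genes, which encode antiviral effectors and guanylate-binding proteins, rose as a block. Of 39 on the array 33 rose and none fell, with a median of 1.66. Between 29 and 32 rose with 1 array left out. Oas3, a sensor of double-stranded RNA, was at 2.15, 2.22 and 2.27 in PBS/PBS and 5.81, 7.12 and 7.28 in OVA/PM. Mx1, a dynamin-like antiviral GTPase, lay at 3.18, 3.28 and 4.38 against 8.04, 8.16 and 8.10, a difference of 4.49 ± 0.31 (adjusted p = 0.00065). Rsad2, which makes a chain-terminating nucleotide, was at 6.70, 6.50 and 8.21 against 11.02, 11.42 and 11.54, with PBS/PBS replicate 3 the highest vehicle array in all these genes.

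Irf7, the transcription factor that amplifies the response, rose from 6.19, 6.41 and 7.16 to 10.49, 10.44 and 10.35. Usp18, a brake on interferon signaling, lay at 8.58, 8.67 and 8.73 against 10.92, 11.01 and 10.95. Ifit1 and Ifit3, which bind foreign RNA, rose by 3.41 ± 0.15 and 1.42 ± 0.14. Interferon-stimulated response elements hold paired GAAA blocks, so GAAA followed after any 2 bases by a further GAAA was searched on both strands of promoters (250 bases before to 50 after the start, RefSeq, GRCm38.p6). The letters occurred in 16 of the 26 promoters found for the genes that rose (61.5%), and in 3.99% of all 27025 genes with a promoter. Over all interferon-induced genes on the array, called or not, they occurred in 18 of 30 promoters, so the share is that of the list. The match is a description of letters, not of bound sites. The promoters of the genes with the largest rises among those holding it are shown 5′ to 3′ with the matched letters in capitals, Oas3 (chr5:120777610-120777909, minus strand) and Rsad2 (chr12:26456403-26456702, minus strand).
Oas3: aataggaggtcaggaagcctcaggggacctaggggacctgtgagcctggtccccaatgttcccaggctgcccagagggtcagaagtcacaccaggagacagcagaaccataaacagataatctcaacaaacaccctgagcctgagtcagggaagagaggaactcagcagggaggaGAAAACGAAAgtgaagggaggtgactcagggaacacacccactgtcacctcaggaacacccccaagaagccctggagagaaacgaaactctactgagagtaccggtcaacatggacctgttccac
Rsad2: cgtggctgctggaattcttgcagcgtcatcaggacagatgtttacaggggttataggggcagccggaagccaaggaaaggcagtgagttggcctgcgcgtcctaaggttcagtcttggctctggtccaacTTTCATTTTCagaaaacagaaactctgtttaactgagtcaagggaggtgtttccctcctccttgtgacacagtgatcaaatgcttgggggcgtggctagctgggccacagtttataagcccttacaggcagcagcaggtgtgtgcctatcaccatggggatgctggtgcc

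Cell division genes rose too. Of 55 genes of mitosis and chromosome segregation on the array, 47 rose and none fell, with a median of 2.75, and between 45 and 48 rose with 1 array left out. The 47 were all the members tested. Members with every PBS/PBS array under 4.93, such as Cdk1 and Cenpf below, were tested only through OVA/PM, which favours rises. With no filter on low values 49 rose, and 14 did with the filter at the 75th percentile. Cdk1, the kinase that drives entry into mitosis, was at 4.68, 4.71 and 4.63 in PBS/PBS and 9.09, 8.59 and 8.95 in OVA/PM, at least 15.4-fold higher (adjusted p = 5.3e-05). Its partners Ccna2 and Ccnb2 lay at 5.32, 4.74 and 4.79 and 5.52, 5.75 and 5.86 in PBS/PBS and at 8.39, 8.23 and 8.32 and 9.13, 8.70 and 8.85 in OVA/PM. Cenpf, a kinetochore protein, was at 2.58, 3.08 and 2.37 against 7.98, 7.02 and 7.48. The proliferation marker Mki67 was at 6.91, 7.25 and 7.16 against 10.59, 10.00 and 10.58, 9.73-fold higher, and Top2a, which untangles chromosomes, rose by 3.69 ± 0.14.

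Genes of DNA replication and nucleotide supply gave 30 rises in 44, with a median of 0.94. Rrm2, the regulated subunit of ribonucleotide reductase, was at 7.59, 7.43 and 7.12 against 10.77, 10.13 and 10.35. The thymidine kinase Tk1 rose by 2.76 ± 0.11, and Mcm5, a subunit of the replicative helicase, by 1.70 ± 0.16. Of 19 p53 target and DNA damage genes 2 rose, Brca1 (2.23) and Chek2 (0.76), close to the 8.65% of all genes called higher. The 2 became 1 without OVA/PM replicate 1 or PBS/PBS replicate 1 or 2, and the call of Chek2 was lost in 4 of the 6 fits. Promoters of genes used in late cell cycle phases often hold CCAAT boxes and the element TTTGAA. On either strand CCAAT occurred in 31 and TTTGAA in 30 of 40 promoters found for the mitosis genes that rose (77.5% and 75%), against 41.1% and 20.2% of all genes with a promoter. Both occurred in 27 of the 40 and in 7.97% of all genes. Over all mitosis genes on the array, called or not, the shares were 75.6% and 73.3%. Replication genes that rose held CCAAT in 58.3% and TTTGAA in 16.7% of promoters. Those of Cenpf (chr1:189688037-189688336, minus strand) and Cdk1 (chr10:69352863-69353162, minus strand), the largest rises with both elements, carry them in capitals (ATTGG is CCAAT on the other strand).
Cenpf: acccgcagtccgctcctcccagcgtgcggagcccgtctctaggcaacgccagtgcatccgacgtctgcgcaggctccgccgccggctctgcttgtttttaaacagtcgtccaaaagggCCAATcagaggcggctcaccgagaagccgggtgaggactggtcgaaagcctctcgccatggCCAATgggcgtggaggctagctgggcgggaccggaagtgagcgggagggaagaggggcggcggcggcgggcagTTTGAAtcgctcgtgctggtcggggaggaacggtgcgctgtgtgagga
Cdk1: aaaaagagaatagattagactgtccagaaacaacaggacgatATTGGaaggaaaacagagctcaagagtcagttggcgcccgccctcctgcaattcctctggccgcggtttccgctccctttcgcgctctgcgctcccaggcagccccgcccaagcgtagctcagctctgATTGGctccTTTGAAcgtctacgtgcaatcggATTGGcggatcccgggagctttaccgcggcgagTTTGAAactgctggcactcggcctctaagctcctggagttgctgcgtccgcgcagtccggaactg

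**Figure D2:**
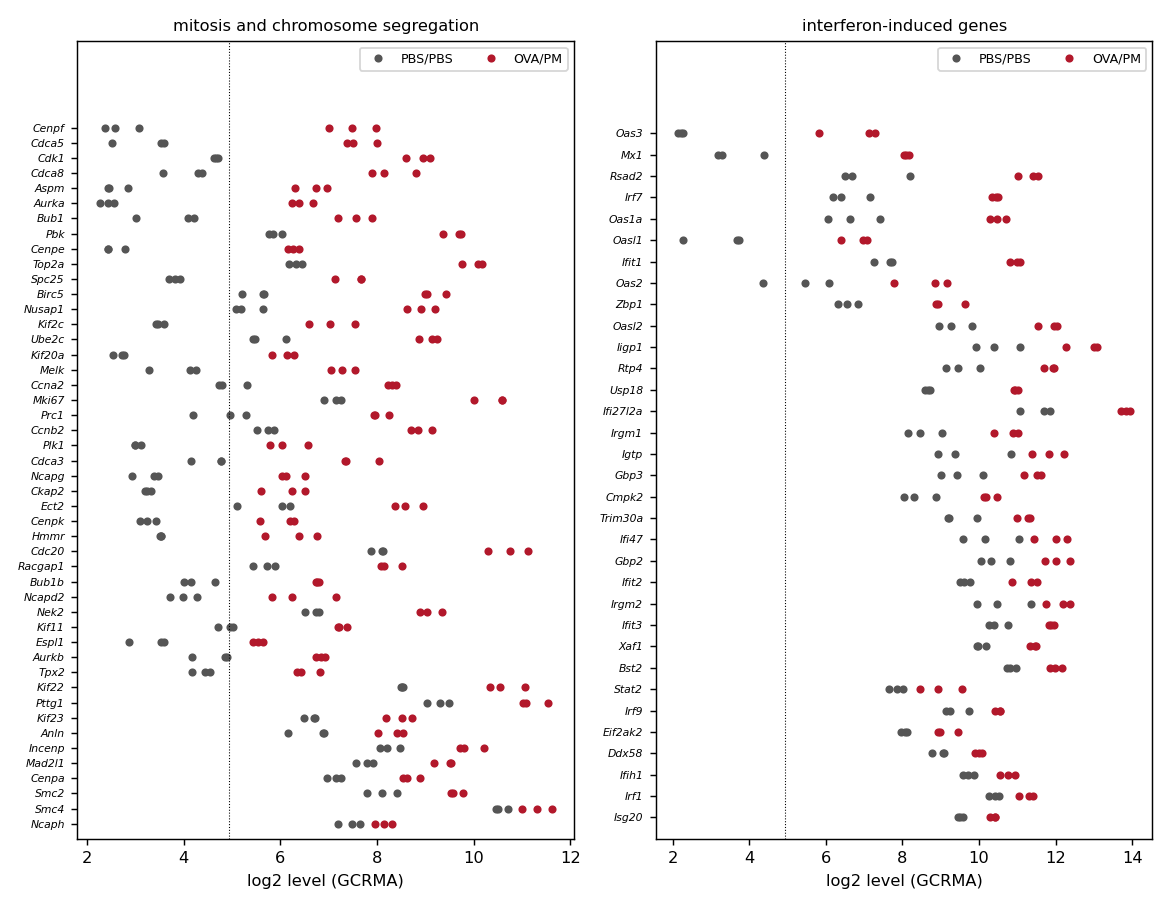
Log2 GCRMA level (x axis) of each array for the 47 mitosis genes (left) and 33 interferon-induced genes (right) called higher, with PBS/PBS arrays in grey, OVA/PM arrays in red and 4.93, the level for testing, as a dotted line. Cenpf heads the left panel and Oas3 the right one, and the genes are sorted by their difference.

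Most genes of lung endothelium and of alveolar type 1 cells fell. Of 32 lung endothelium genes 24 fell and none rose (against 6.10% of all genes lower), with a median of -0.58. Acvrl1, an endothelial receptor for bone morphogenetic proteins, was at 12.15, 12.28 and 12.10 in PBS/PBS and 10.76, 10.89 and 10.67 in OVA/PM, 2.65-fold lower (adjusted p = 0.0007). The angiopoietin receptor Tek lay at 13.59, 13.52 and 13.45 against 12.56, 12.38 and 12.62. Tmem100, Erg, Tie1, Eng and Pecam1 fell by 1.04, 1.01, 0.98, 0.92 and 0.78. Cdh5 and Vwf, also defining markers, fell by 0.55 and 0.38, calls that no fit with 1 array left out kept. Such fits gave between 12 and 20 falls, with 12 without PBS/PBS replicate 2 and 16 without PBS/PBS replicate 1.

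Alveolar type 1 cells, the thin cells of gas exchange, gave 11 falls and no rise in 16 genes (median -0.51). Igfbp2 was at 13.35, 13.26 and 13.12 in PBS/PBS and 12.34, 12.50 and 12.23 in OVA/PM, and Hopx at 14.77, 14.53 and 14.59 against 14.01, 13.95 and 13.91. Rtkn2 fell by 0.69, and Ager and Aqp5 by 0.33 and 0.32, calls lost whichever array was left out. Between 6 and 9 fell in those fits, the fewest without PBS/PBS replicate 2. Alveolar type 2 genes gave 3 rises and 1 fall in 18, and Sftpc was not called (adjusted p = 0.31). The 3 rises became 1 without PBS/PBS replicate 1 or 2 or OVA/PM replicate 2 or 3. Smooth muscle genes gave 9 falls in 20, but 1 to 4 without any 1 array other than PBS/PBS replicate 3. Of 21 fibroblast genes 6 fell and 2 rose (median -0.40). The 6 became 1 without PBS/PBS replicate 2, 3 without PBS/PBS replicate 1 or OVA/PM replicate 3, and 4 without any other array. Among them, Ltbp4, which anchors elastic fibers, fell from 12.60, 12.72 and 12.32 to 11.12, 10.97 and 10.95. Sfrp1, a secreted Wnt inhibitor, rose by 1.65.

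**Figure D3:**
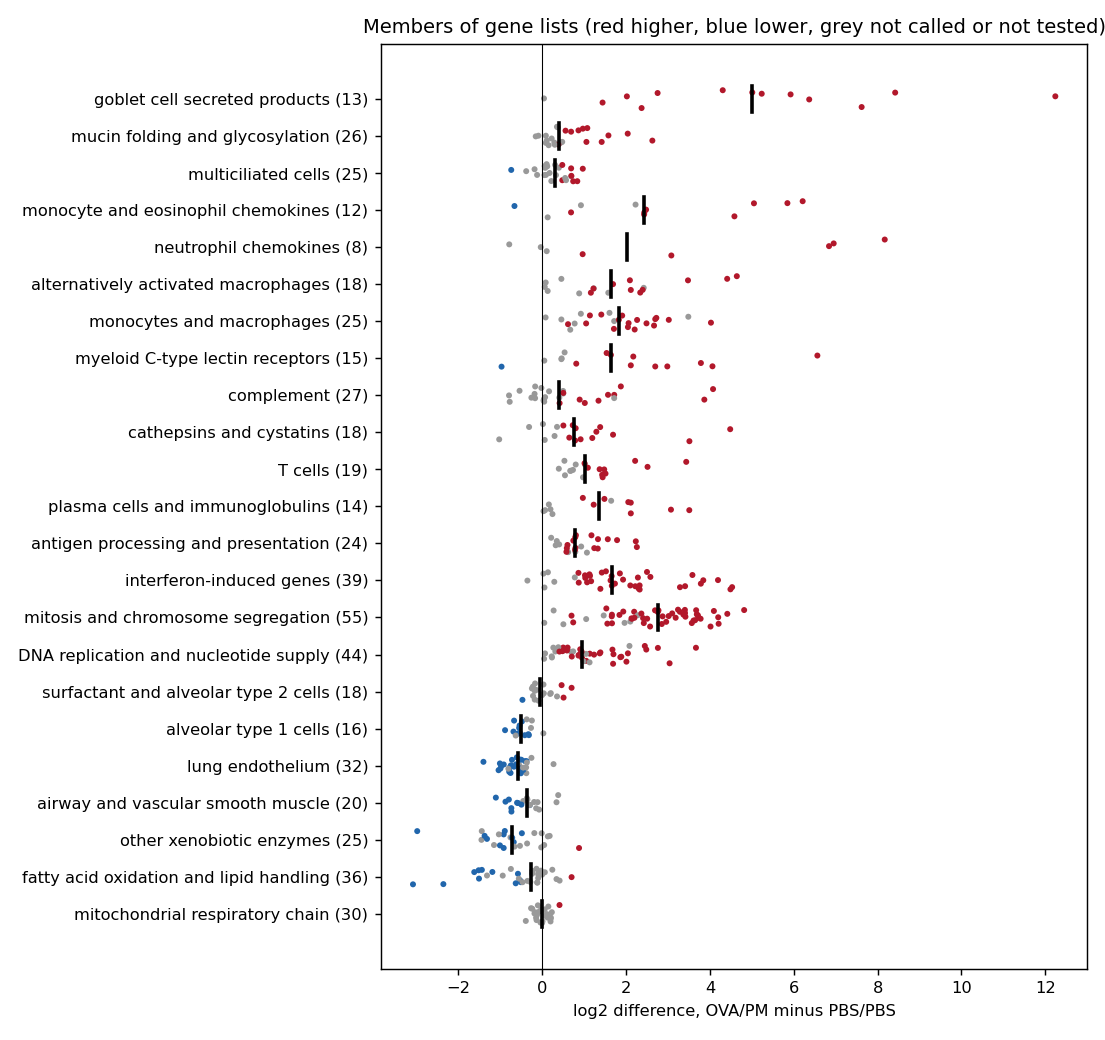
Log2 difference of OVA/PM minus PBS/PBS (x axis) for the members of 23 gene lists (y axis, number on the array in parentheses), with red points for genes called higher, blue for lower and grey for not called or not tested, and a black bar at each list's median. Goblet, chemokine, myeloid, interferon and mitosis lists lie to the right of 0, and endothelium, type 1 cell and xenobiotic enzyme lists to the left.

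Among enzymes that handle foreign compounds and lipids, falls outnumbered rises, and most members were not called. Of 25 xenobiotic enzymes outside the cytochrome P450 family, 10 fell and 1 rose (median -0.72). Ces1g, a carboxylesterase, was at 8.03, 8.53 and 7.38 in PBS/PBS and 5.94, 5.01 and 4.03 in OVA/PM. The sulfotransferase Sult1d1 lay at 9.79, 9.87 and 9.87 against 8.60, 8.20 and 8.60, and the paraoxonase Pon1 at 12.01, 11.83 and 11.76 against 10.64, 10.51 and 10.49. Liver makes several of these enzymes. PBS/PBS replicate 1, the array with liver transcripts, was the highest vehicle array for Pon1 and not for Ces1g or Sult1d1. Without it the calls of these 3 genes held and the list gave 7 falls. The part of liver RNA in the falls was not tested. The list gave between 5 and 14 falls with 1 array left out, 5 without PBS/PBS replicate 2.

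Cytochrome P450 genes of families 2, 3 and 4 gave 5 falls and 1 rise in 20, with Cyp2d22 at 9.02, 8.88 and 8.87 against 7.72, 7.25 and 7.75. The 5 became 3 without PBS/PBS replicate 1 or 2 or OVA/PM replicate 1 or 3. PBS/PBS replicate 1 stood apart on this list, with a mean level of 7.38 against 6.45 to 6.73 in the other 11 arrays, and the part of its liver transcripts was not tested. Of 36 genes of fatty acid oxidation and lipid handling 11 fell and 1 rose, with 7 falls without OVA/PM replicate 1 or PBS/PBS replicate 2. Acaa1b, a peroxisomal thiolase, was at 9.57, 9.68 and 9.01 in PBS/PBS and 6.17, 6.48 and 6.35 in OVA/PM, 8.49-fold lower (adjusted p = 0.00048). Fabp1 and Fabp3, carriers of fatty acids, fell by 2.36 and 1.52, the latter also a muscle protein. Pdk4, which turns cells from glucose to fat as fuel, fell by 1.62. Fat cell genes fell in the same lungs (5 of 13), and Plin4 is in both lists. Without PBS/PBS replicate 2, 2 fat cell genes fell, and without OVA/PM replicate 1 or 2, 3 did. The part of fat cell RNA in these falls was not tested. Respiratory chain subunits gave 1 rise and no fall in 30.

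**Figure D4:**
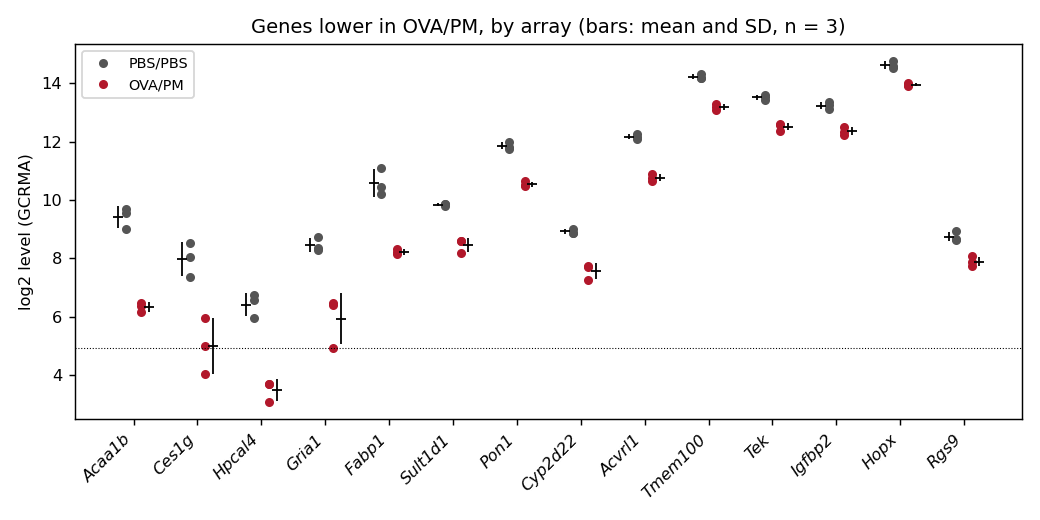
Log2 GCRMA level (y axis) of each array for 14 genes called lower, with PBS/PBS in grey and OVA/PM in red, bars for the mean and SD of 3 arrays and a dotted line at 4.93. The groups do not overlap in any of these genes, which were picked from those named here, and Acaa1b and Ces1g have the widest gaps of the enzymes.

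Individual genes of signaling also fell. Gria1, a glutamate receptor subunit, was at 8.72, 8.35 and 8.28 in PBS/PBS and 6.48, 4.93 and 6.39 in OVA/PM. Hpcal4, a neuronal calcium sensor, lay at 6.57, 6.74 and 5.95 against 3.06, 3.69 and 3.71, at least 2.81-fold lower. Rgs9, which shortens signals of G proteins, fell from 8.94, 8.64 and 8.67 to 7.86, 8.07 and 7.74 (adjusted p = 0.0079), while its relatives Rgs1 and Rgs16 rose by 2.84 and 1.86. Of 17 regulators of G protein signaling 3 rose and 3 fell (17.65% each way, against 8.65% and 6.10% of all genes). The phosphodiesterases Pde3a and Pde9a and the adenylate cyclases Adcy5 and Adcy8, which set cyclic nucleotide levels, fell by 1.40, 1.12, 1.09 and 1.08. Their list of phosphodiesterases and beta receptors gave 6 falls and 1 rise in 20, with 3 falls without PBS/PBS replicate 2. Muscle transcripts gave 15 falls in 47, but 3 without OVA/PM replicate 3, 5 without OVA/PM replicate 1, and 7 and 8 without PBS/PBS replicates 1 and 3. The list's level varied among vehicle arrays as given above. Most of the 15 largest falls with non-overlapping arrays were of muscle genes, from Tnnt3 (4.78) and Myot (4.74) to Cmya5 (2.27). Between them lay Atp2a1, Neb, Mybpc2, Mybpc1, Ckm, Tnni2 and Casq1.

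Genes often tied to particles and oxidants gave a mixed picture. Cyp1a1, the classic target of the aryl hydrocarbon receptor, was at 8.57, 7.85 and 8.46 in PBS/PBS and 8.02, 7.34 and 7.67 in OVA/PM, with no call (adjusted p = 0.12). Cyp1b1 rose by 1.18 ± 0.24, a call lost in 5 of 6 fits with 1 array left out. Of 35 glutathione and NRF2 target genes 5 rose and 5 fell (14.3% each way, against 8.65% and 6.10% of all genes). The cystine importer Slc7a11 rose by 3.97 and heme oxygenase Hmox1 by 1.40 ± 0.25, while the transferases Gsta3 and Gstm1 fell by 1.58 and 1.01. Nqo1 was at 6.84, 7.21 and 6.50 against 6.34, 6.05 and 6.29 with no call. Metal handling genes gave 7 rises and 1 fall in 21, with rises in the zinc importer Slc39a2 (3.29) and Slc11a1 (2.64), and the metallothioneins Mt1 and Mt2 were not called. Ch25h, which makes an antiviral oxysterol, rose by 3.95 ± 0.44.

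The combined exposure was also set against each single exposure. Which of those arrays received OVA and which PM is in doubt, because printed fold changes of the study run the other way from the labels, so they are named as labelled. The comparisons share the OVA/PM arrays. Against the arrays labelled OVA/PBS, 17 genes were higher and 1 lower (0.0934% and 0.00550% of genes on the array, 0.150% and 0.00881% of those tested), and against those labelled PBS/PM, 1036 were higher and 764 lower (5.69% and 4.20% of genes on the array, 9.14% and 6.74% of those tested). The 17 held goblet cell and mucus genes, such as Clca1 (8.37 in the arrays labelled OVA/PBS, 14.29 in those labelled PBS/PM and 14.63 in OVA/PM, as group means) and Fcgbp (7.05, 9.71 and 11.03). They also held Chil3, Chil4, Rnase2a and antibody genes such as Jchain and Iglv1.

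Of these, 5 genes were higher in OVA/PM than in each of the other 3 groups: Muc5ac, Tff2, Spdef, Scin and Fer1l6. Some calls were near the threshold (limma): adjusted p was 0.043 for Muc5ac against the arrays labelled OVA/PBS. It was 0.037 for Fer1l6 against those labelled PBS/PM. Spdef and Scin entered each of these tests only through the OVA/PM arrays. Muc5ac and Fer1l6 did so against PBS/PBS and against the arrays labelled OVA/PBS. Such a filter favours a rise. Muc5ac had group means of 2.05 in PBS/PBS, 5.10 and 6.12 in the arrays labelled OVA/PBS and PBS/PM, and 9.67 in OVA/PM. Spdef was at 2.39, 2.54, 2.65 and 5.85 in the same order, so among the 4 group means only that of OVA/PM passed 4.93. Scin, an actin-severing protein, and Fer1l6 were at 6.73 and 8.94 in OVA/PM and at most 3.58 and 7.19 elsewhere. For cell division the order differed: Cdk1 was at 4.67, 8.90, 5.31 and 8.88, and 46 of 55 mitosis genes were higher than in the arrays labelled PBS/PM and none passed the test against those labelled OVA/PBS. Of 32 endothelium genes 18 were lower than in the arrays labelled PBS/PM, and none against those labelled OVA/PBS. The arrays labelled OVA/PBS were uneven. Their mean levels were 7.71, 6.79 and 7.49 on the mitosis list and 9.11, 7.29 and 8.70 on the monocyte and eosinophil chemokines. A wide spread lets fewer differences pass, so a missing call does not show equal levels. The part of this spread in the counts was not tested.

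**Figure D5:**
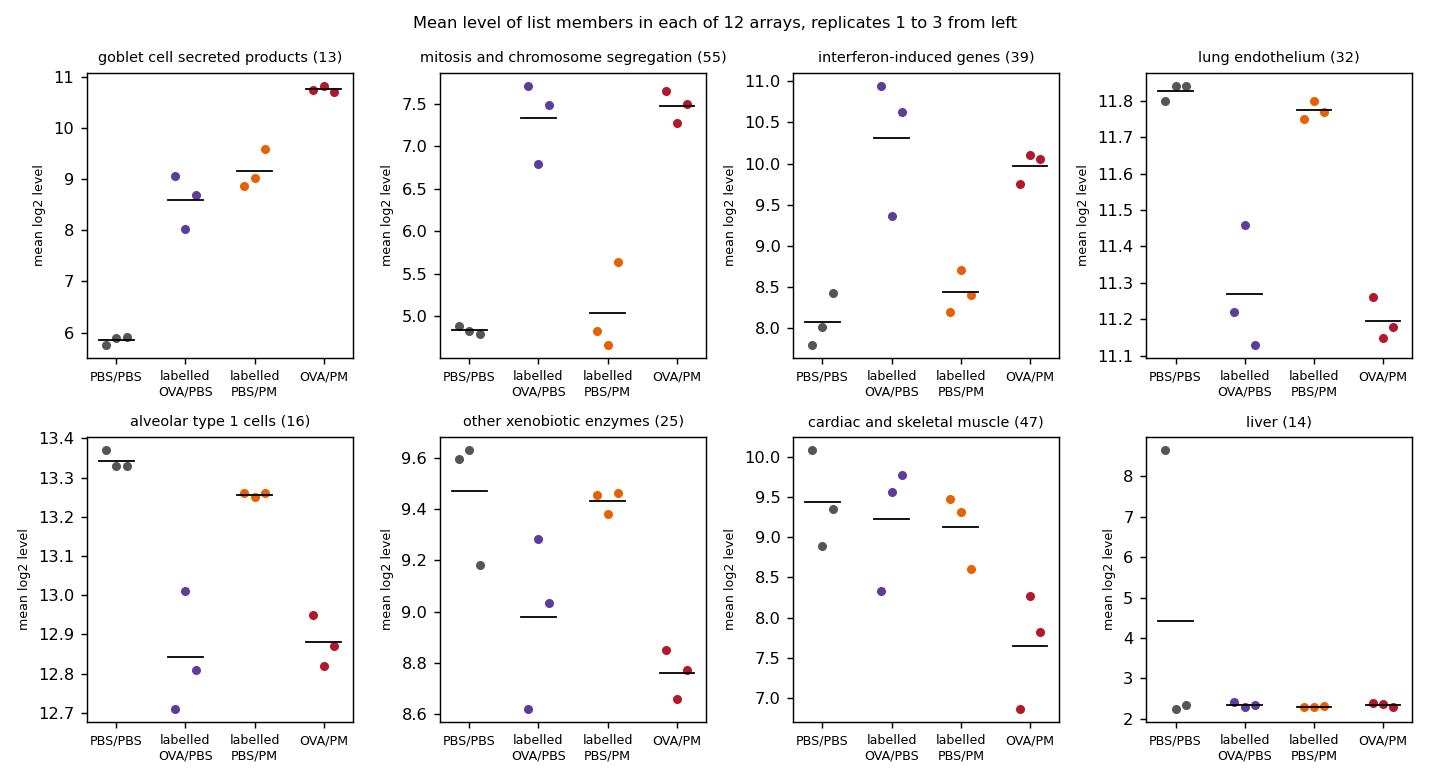
Mean log2 level of the members of 8 gene lists (y axes, number of genes in parentheses) in each of the 12 arrays, grouped as labelled (x axis), with replicates 1 to 3 from left and a bar at each group mean. Goblet cell products are highest in OVA/PM, and mitosis genes in OVA/PM lie within the range of the arrays labelled OVA/PBS. The liver panel has PBS/PBS replicate 1 alone at 8.65.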

How the data were processed

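Lung RNA of 12 A/J mice, 1 array per animal, was hybridised to Affymetrix whole-genome mouse arrays with 45101 probe sets. The authors made the deposited log2 values with GCRMA, which corrects background by probe composition, quantile-normalizes and summarises each probe set. The submitters' processing notes also name MAS5, and versions are not given in the sources used here. Arrays carry no read depth, and 3 per group limit the precision. GCRMA draws low values together, so folds of low genes may be understated. Their spread is also small: Clca1 had an SD of 0.011 in PBS/PBS, where the median over probe sets tested was 0.13. The SE and adjusted p of such genes may therefore be too small.

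Groups came from the labels. Each contrast was fitted on its own 6 arrays by lmFit and eBayes of limma (version 3.58.1, under R 4.3.3), with Benjamini-Hochberg adjustment over all probe sets tested and a threshold of 0.05. SAM, the test of the study's methods, was an alternative in code written for this work. The scripts were tested on simulated data. SE is that of the moderated fit. A fold is given as "at least" where every array of 1 group lay under 4.93, and then runs from that level.

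Symbols came from the platform annotation. Of 45101 probe sets 34958 had 1 symbol, 932 several and 9211 none, and the last 2 kinds are not named. The probe set of highest mean stood for a gene. Of 4982 genes with 2 or more probe sets tested, 261 had all of them called higher and 260 all called lower. In 485 some were called higher and others not called, and in 679 some lower and others not called. A gene's call may thus not hold for its other probe sets. Members and gene lists were chosen with earlier results of these data known. Named genes are drawn from the 15 largest rises and 15 largest falls among calls with non-overlapping arrays. Others are up to 6 called members with the largest differences per list, up to 2 defining members not called, and genes the study names. Chosen after their values were seen were Ager, Aqp5, Ccna2, Ccnb2, Cdh5, Fcgbp, Fer1l6, Ifit1, Ifit3, Iglv1, Mcm5, Mki67, Pecam1, Scin, Top2a, Usp18, Vwf, and the genes named for libraries that stand apart.

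Replicate numbers did not pair the samples: deviations of same-numbered arrays correlated at -0.10, 0.09 and 0.01. No 2 arrays held identical values. The labels OVA/PBS and PBS/PM may be exchanged, since 6 of 6 probe sets checked against printed folds were larger in the arrays of the other label. The comparison of OVA/PM with PBS/PBS does not use those arrays. Settings varied were the filter on low values (none, the 75th percentile in place of the median, or group means), 16 added before log2, further quantile normalization, the replicate block, all 4 groups in 1 fit, an intensity trend, the probe set of lowest p, and each array left out.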

Additional observations from a re-analysis of the deposited data

Results flagged for a closer look

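The bacterial spike-in controls BioB and BioC, which are labelled transcripts added at hybridization and take no part in the comparisons, were high in 1 array. BioB averaged 6.65 in OVA/PM replicate 3, against 4.45 to 4.68 in the other 11 arrays. BioC averaged 7.56 in that array, against 3.56 to 3.95. The other controls of this kind, BioDn and CreX, were also above all other arrays there, BioDn at 10.52 against 9.85 to 10.33 and CreX at 13.75 against 13.03 to 13.45. Without OVA/PM replicate 3, 3476 probe sets differed from PBS/PBS in place of 4899. The part of these controls in the results was not tested.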

How the results depend on the processing

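Of the 337 named genes and list members followed, 336 were called in OVA/PM against PBS/PBS. They were drawn from called genes and from genes the study names, so this share was fixed by the choice. Genes named here as not called, such as Cd3e and Il1b, were not among them. None of the 337 changed direction under any alternative that tested it. The filters on low values, the intensity trend, the fit of all 4 groups and the replicate block leave each difference unchanged. Those settings could therefore not reverse a direction. Of the 336 calls, 29 to 91 were lost with 1 array left out, the most without PBS/PBS replicate 2, and 67 with no filter. The 4899 probe sets that differed between OVA/PM and PBS/PBS became 9636 with SAM and 3446 with the replicate block, and ranged from 2188 (without PBS/PBS replicate 2) to 4491 with 1 array left out. Genes past the stricter thresholds, 276 in all, became 117 with the replicate block, 116 with no filter, 171 with the filter at the 75th percentile and 432 with SAM, and 58 to 204 with 1 array left out, the fewest without OVA/PM replicate 3. Against the arrays labelled OVA/PBS, 29 probe sets became 10 with no filter, 91 with SAM and 22 with the replicate block, and 9 to 63 with 1 array left out. Against those labelled PBS/PM, 2894 became 1377 with the replicate block and 5555 with SAM, and 1367 to 1870 with 1 array left out. Fewer arrays or more probe sets tested account by construction for part of these losses, and otherwise the cause was not tested. List genes called numbered 556, and 384 to 566 with 1 array left out. The 3 animals per group and the low signal of many probe sets limit what could be called.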
